A study of Mus musculus with 2 samples.

Results

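Interferon-gamma is the cytokine by which activated T cells and NK cells signal to surrounding cells, and 5 of the 32285 genes in the count tables were followed here along that route. They were chosen by symbol: Ifng, the gene of the cytokine itself; Ifngr1 and Ifngr2, the genes of the ligand-binding chain and the signal-transducing chain of its receptor; Irf1, a transcription factor gene switched on by the receptor; and Socs1, whose protein inhibits the kinases bound to the receptor and so limits the response. Each symbol matched a single gene. The cells were CD45-sorted leukocytes of subcutaneous tumours that grew in wild-type BALB/c mice from MFC, a carcinoma line of the mouse forestomach. The treated mice had received thonzonium bromide (TB), a cationic surfactant, at 50 mg/kg every other day from day 6, the others had received PBS, and all were killed on day 10. Each treatment had 1 library. The number of mice behind a library and the schedule of the PBS doses were not given in the sources used here, and the same treatment text stands on both samples.

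Interferon-gamma binds Ifngr1 chains, Ifngr2 chains join them, and the kinases Jak1 and Jak2 then pass the signal on. It reaches short DNA elements known as GAS sites, and the genes it switches on include Irf1 and Socs1. In tumours the cytokine is known for raising antigen presentation and the chemokines that draw in T cells, and in mouse T cells the Ifngr2 gene is known to be turned down in the helper type that makes the cytokine.

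With 1 library per group no test between treatments was possible. Levels are given as unique molecular identifiers (UMIs) in the usual scaling by the UMI total of the same cells (CPM), and intervals are 95% intervals that cover counting error only, since cells of a library share tumours, sort and droplet run. A TB over PBS ratio was given where both libraries had at least 50 cells of a kind, and it was called higher or lower where the gene had at least 50 UMIs, the ratio was at least 1.5-fold in either direction and the interval excluded 1. After filtering, the TB library held 5833 cells with 50871432 UMIs and the PBS library 6419 cells with 44148296 UMIs, at medians of 7259 and 4300 UMIs per cell. Haemoglobin genes took 1.16% of TB and 8.64% of PBS UMIs, and 14 barcodes occurred in both libraries. The 5 genes had 3479 TB and 2421 PBS UMIs for Ifng, 19818 and 16211 for Ifngr1, 2955 and 1379 for Ifngr2, 7729 and 5073 for Irf1, and 5211 and 4251 for Socs1. Cell classes were rebuilt by clustering without the 5 genes and named from marker lists, and clusters within a class carry the name of a leading gene. All 8 T cell markers in T-like cells and all 10 NK cell markers in NK-like cells reached 50 CPM in both libraries.

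In the GENCODE annotation of the GRCm38 build, Ifng (ENSMUSG00000055170) lies at chr10:118441046-118445892 and Ifngr1 (ENSMUSG00000020009) at chr10:19591949-19610229, both on the plus strand. Ifngr2 (ENSMUSG00000022965) lies at chr16:91547072-91565623 on the plus strand, Irf1 (ENSMUSG00000018899) at chr11:53770014-53778374 on the plus strand and Socs1 (ENSMUSG00000038037) at chr16:10782240-10785536 on the minus strand. All are protein-coding. The promoters of Irf1 and Socs1 are shown because both genes are known targets of the receptor, and all 5 symbols were found in the RefSeq promoter table (GRCm38.p6). Capitals mark a TTCNNNGAA match (the GAS pattern, the same on both strands) in Irf1 and 2 overlapping GAAANNGAAA matches (the pattern of an interferon-stimulated response element, searched on both strands) in Socs1. The Irf1 stretch is chr11:53769889-53769968 on the plus strand, with the match starting at position -90 from the start site, and the Socs1 stretch is chr16:10785575-10785654 read on the minus strand, with matches at -83 and -77.
Irf1: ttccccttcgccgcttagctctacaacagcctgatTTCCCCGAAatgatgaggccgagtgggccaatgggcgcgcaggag
Socs1: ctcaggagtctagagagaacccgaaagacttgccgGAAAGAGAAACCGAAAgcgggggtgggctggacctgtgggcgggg
TTCNNNGAA stood in 2726 of 32851 promoters of the same 300 bases (8.30%) and GAAANNGAAA in 1131 (3.44%). The Ifng window held a TTCNNNGAA match at -249, and the windows of Ifngr1 and Ifngr2 held neither pattern, nor did another Irf1 window of the table, chr11:53770223-53770522. These matches describe letters and are not sites shown to be bound.

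Ifng was held mostly by T-like and NK-like cells, and in the TB library the larger part lay in T-like cells, an order that depended on Ifng-rich cells. T-like cells held 1632 of the TB library's Ifng UMIs, 46.9% (95% exact binomial interval 45.2 to 48.6), and 862 of those of the PBS library, 35.6% (33.7 to 37.5). NK-like cells held 1401 TB UMIs, 40.3% (38.6 to 41.9), and 1325 PBS UMIs, 54.7% (52.7 to 56.7). T-like cells made up 20.8% of TB and 23.2% of PBS cells, and NK-like cells 19.03% of TB and 18.7% of PBS cells. The order of the 2 classes differed between the libraries while their shares of cells differed less. Without the Gzmk-led CD8 T-like cells described below (212 TB and 17 PBS cells), T-like cells held 36.2% and NK-like cells 48.4% of TB Ifng UMIs. Leaving out a T-like cluster rich in Ifng lowers the T-like share by construction. The 75 TB cells with at least 10 Ifng UMIs were likewise picked by Ifng itself. Without them the 2 classes were close in TB, with 871 T-like and 901 NK-like of 1999 UMIs.

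The level of Ifng in T-like cells rose to 167 CPM in the TB library (159 to 175), against 88.2 CPM in the PBS library (82.4 to 94.3), a ratio of 1.89 (1.74 to 2.06). Of the genes measured in T-like cells, 1.42% were called higher and 4.32% lower. In NK-like cells Ifng was at 113 CPM in the TB library (107 to 119) and 109 CPM in the PBS library (103 to 115), a ratio of 1.03 (0.96 to 1.11), where 1.22% of genes were called higher and 2.21% lower. Cells with at least 1000 UMIs were also thinned to that number, which left out 19 TB and 130 PBS T-like cells. Of the T-like cells kept, 8.80% in TB and 4.92% in PBS had an Ifng UMI after thinning, and 30.6% in TB and 20.1% in PBS before it. Among NK-like cells, 1 TB and 34 PBS cells left out, the thinned shares were 8.93% in the TB and 9.41% in the PBS library, and the unthinned shares of the same cells 37.0% in TB and 35.8% in PBS. B-like cells, which should lack the transcript, had a thinned share of 1.19% of 506 TB cells and 0 of 229 PBS cells, whose exact interval reaches 1.6%.

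CD8 T-like cells of 2 clusters carried most of the T-like Ifng. The Gzmf-led CD8 T-like cells, which lead in the killer-cell protease gene Gzmf, stood at 411 CPM in the TB library (383 to 441, 156 cells) and 350 CPM in the PBS library (322 to 380, 150 cells), a ratio of 1.18 (1.05 to 1.31) that was not called. The Gzmk-led CD8 T-like cells, which lead in another granzyme gene, stood at 424 CPM in the TB library (390 to 460, 212 cells) and 217 CPM in the PBS library (130 to 338, 17 cells), too few for a ratio. The Gzmk-led cells thus came nearly all from the TB library, and they held 16.8% of its Ifng UMIs against 0.78% in the PBS library. The Gzmf-led cells held 22.4% of TB and 23.7% of PBS Ifng UMIs. Without the Gzmk-led cells the T-like ratio was 1.44, and with the clusters given the same weights in both libraries it was 1.32 (138 CPM in TB and 105 CPM in PBS), both short of the call.

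**Figure D1:**
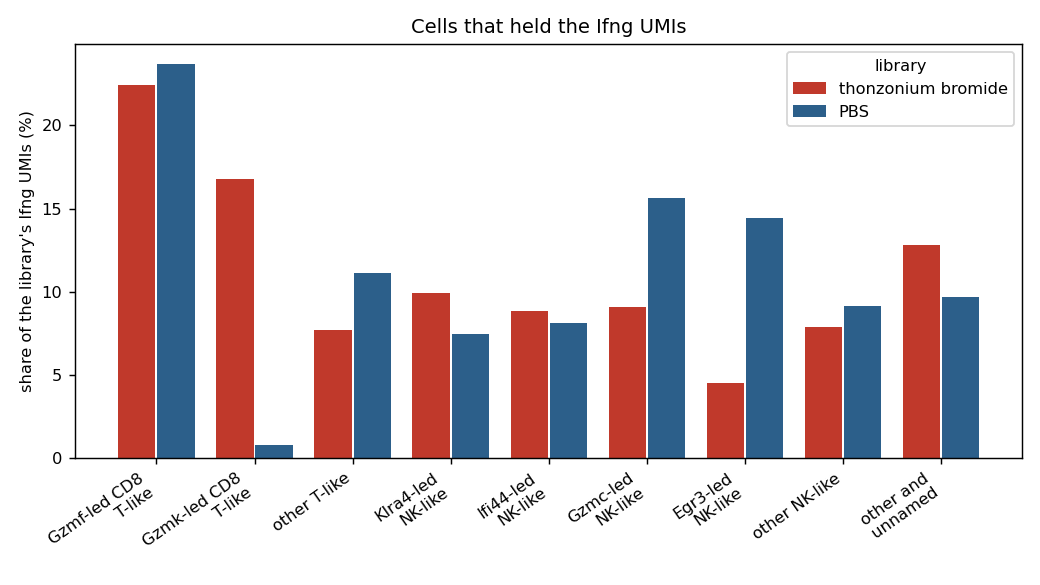
Share of each library's Ifng UMIs (%, vertical axis) held by T-like and NK-like clusters and by all other cells, with TB bars in red and PBS bars in blue. Gzmk-led CD8 T-like cells held 16.8% in TB and 0.78% in PBS, and Egr3-led NK-like cells 4.48% in TB and 14.4% in PBS.

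The other T-like clusters had lower Ifng levels. Cycling T cells, which express mitosis genes, rose to 80.8 CPM in the TB library, against 40.3 CPM in the PBS library, a ratio of 2.00 (1.48 to 2.73) in a cluster where 1.91% of genes were called higher. The Ly6c2-led T cells, the largest T-like cluster, had 42.4 CPM in TB and 38.9 CPM in PBS, a ratio of 1.09. Cd8a and Cd8b1 were also among the leading genes of this cluster and of the naive T-like cluster. Regulatory T-like cells, named from Foxp3 and its companions, had 22.5 CPM in TB and 24.8 CPM in PBS. Naive T-like cells had 6.32 CPM in TB and 7.16 CPM in PBS, from 5 UMIs in each library. Gzmf-led cells exceeded Ly6c2-led cells 9.71-fold in TB (8.10 to 11.7) and 9.01-fold in PBS (7.47 to 10.9), and exceeded regulatory T-like cells 18.3-fold in TB and 14.1-fold in PBS. The T-like clusters with at least 50 cells in both libraries stood in the same order in both. Within that order the intervals of regulatory T-like and Ly6c2-led cells overlapped in each library, and those of cycling T and Ly6c2-led cells overlapped in PBS. Gamma-delta T-like cells had 1 UMI in each library.

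Among NK-like cells the highest level lay in a small Egr3-led cluster, whose leading genes are early activation genes (Egr3, Egr2, Nr4a3) and chemokine genes (Ccl3, Ccl4, Xcl1) along with Ifng itself. It held 688 CPM in the TB library (585 to 805, 20 cells) and 1633 CPM in the PBS library (1466 to 1813, 16 cells). Those 16 PBS cells held 14.4% of the library's Ifng UMIs, while the 20 TB cells held 4.48%. Single PBS cells of this cluster held 78, 77 and 70 Ifng UMIs, and a single TB cell held 66. The intervals cover counting error only and not this spread between cells, so a difference between the libraries cannot be read from them. The NK-like class ratio of 1.03 includes this cluster and was not recomputed without it. Ifi44-led NK-like cells, whose leading genes include the interferon-stimulated gene Ifi44, rose to 265 CPM in TB, against 162 CPM in PBS, a ratio of 1.63 (1.36 to 1.96), with 2.31% of genes called higher there. Cycling NK-like cells rose to 112 CPM in TB, against 59.4 CPM in PBS, a ratio of 1.88 (1.34 to 2.66), with 2.21% of genes called higher there. In the larger clusters the libraries were close. Klra4-led cells had 129 CPM in TB and 137 CPM in PBS (ratio 0.94), and Gzmc-led cells 62.4 CPM in TB and 62.3 CPM in PBS (ratio 1.00). Gzmg-led cells had 82.3 CPM in TB and 64.6 CPM in PBS (ratio 1.27, 0.99 to 1.65), and Tmem176b-led cells 55.9 CPM in TB and 81.3 CPM in PBS (ratio 0.69).

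**Figure D2:**
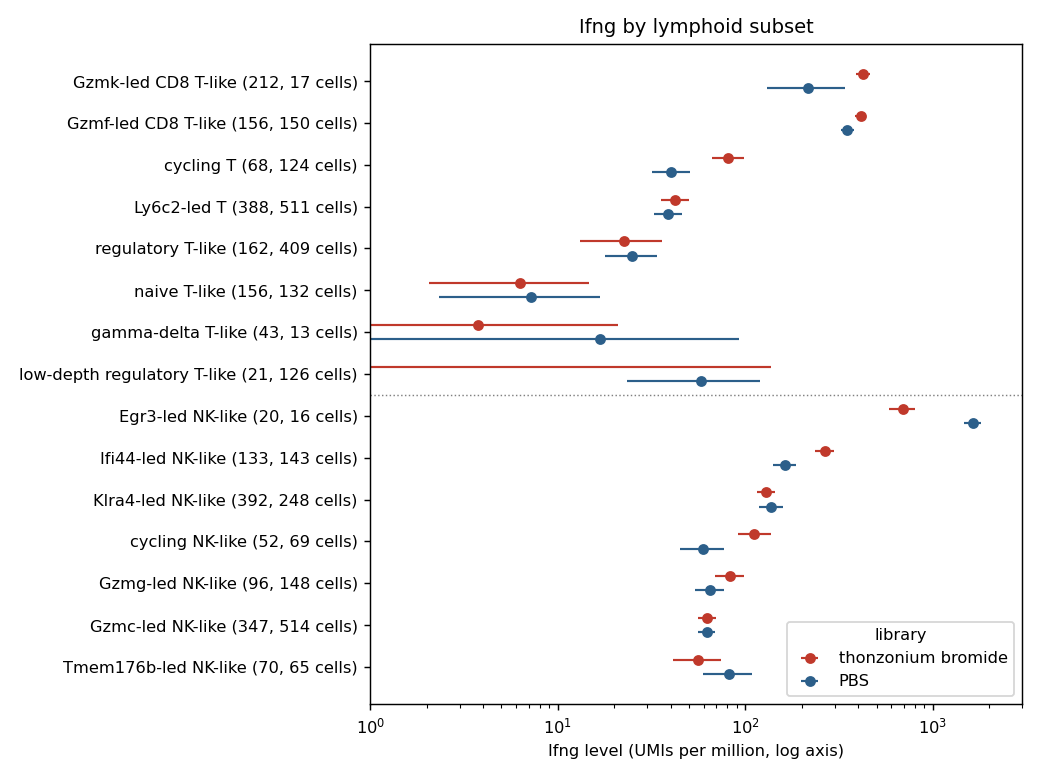
Ifng level (CPM, log axis) in the T-like clusters (above the dotted line) and NK-like clusters (below it) with at least 10 cells in both libraries, TB in red above PBS in blue, with cell numbers in that order and exact Poisson 95% intervals. The clusters span 3.76 to 688 CPM in TB and 7.16 to 1633 CPM in PBS, and the 0 of the low-depth regulatory T-like cells in TB has an interval but no point.

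Few cells held much of the transcript. An Ifng UMI was found in 923 TB and 867 PBS cells, and 75 TB and 34 PBS cells with at least 10 UMIs held 42.5% of TB and 35.3% of PBS Ifng UMIs. Within T-like cells, 41 TB cells held 46.6% and 15 PBS cells held 35.8% of the Ifng UMIs of the class. Within NK-like cells, 24 TB cells held 35.7% and 18 PBS cells held 40.4%. The T-like ratio without these cells was 1.64 and still met the call rule. The cells were picked by Ifng itself, at a limit that follows depth, so this value is no separate support for the ratio.

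Cells with at least 3 Ifng UMIs were then set against cells with none in the same class and library, to see which genes of the route differed with Ifng. In T-like cells (167 against 847 cells in TB, 80 against 1210 in PBS) Bhlhe40, a transcription factor gene known to support Ifng in mouse T helper cells, was higher in the Ifng-positive cells by 3.18-fold in TB (2.83 to 3.57) and 2.94-fold in PBS (2.58 to 3.34). Ifngr1 was lower in them, at a ratio of 0.63 in TB and 0.47 in PBS, Irf1 at 0.55 in TB and 0.47 in PBS, and Socs1 at 0.60 in TB and 0.54 in PBS. Ifng-positive T-like cells therefore carried less of the receptor chain and of both signalling genes than Ifng-negative ones. Within Gzmf-led CD8 T-like cells alone the differences were smaller for Bhlhe40, Ifngr1 and Irf1. There Bhlhe40 was 1.49-fold higher in TB (1.17 to 1.93) and 1.42-fold in PBS (1.13 to 1.79), Ifngr1 was at 0.81 in TB and 0.65 in PBS, and the intervals for Irf1 included 1 in both (0.76, 0.45 to 1.30, in TB and 0.66, 0.38 to 1.15, in PBS). Socs1 was at 0.83 in TB (0.55 to 1.25) and 0.48 in PBS (0.32 to 0.71). In NK-like cells Bhlhe40 was 1.43-fold higher in TB and 1.25-fold in PBS, while Irf1 stood on opposite sides, at 1.24 in TB (1.05 to 1.47) and 0.71 in PBS (0.56 to 0.89), a difference that was not tested. Ifng-positive T-like cells were deeper, at medians of 9571 UMIs in TB and 12915 in PBS, and the part of depth in these ratios was not tested.

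In the other named classes Ifng was at most 20.7 CPM in TB and 14.1 CPM in PBS. Cells without a class had 133 CPM in TB and 48.9 CPM in PBS, and a mixed low-depth lymphoid cluster had 47.8 CPM in TB and 52.8 CPM in PBS. Monocyte/macrophage-like cells fell to 2.59 CPM in TB (41 UMIs), against 8.16 CPM in PBS (42 UMIs), a ratio of 0.32 (0.20 to 0.50) in a class where 1.76% of genes were called higher and 6.82% lower. Of the cells with an Ifng UMI in this class, 12 of 24 in TB and 7 of 33 in PBS also had a UMI of Cd3e, Trac, Ncr1 or Klrb1c, which mark T or NK cells, against 6.83% of TB and 13.6% of PBS cells without Ifng. Leaving out all cells with such a UMI left 0.85 CPM in TB and 6.47 CPM in PBS. A stricter mitochondrial limit of 10% turned the ratio to 1.21, and a finer clustering turned it to 1.29. B-like cells had 18.0 CPM in TB (40 UMIs) and 3.21 CPM in PBS (3 UMIs), and 10 of the 17 TB cells with Ifng had a T or NK marker UMI.

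Ifngr1 was highest in NK-like and T-like cells. NK-like cells had 635 CPM in TB and 537 CPM in PBS (ratio 1.18), and T-like cells 580 CPM in TB and 638 CPM in PBS (ratio 0.91). Dendritic-like cells followed with 272 CPM in TB and 275 CPM in PBS, monocyte/macrophage-like cells with 227 CPM in TB and 209 CPM in PBS, neutrophil-like cells with 136 CPM in TB and 195 CPM in PBS, and B-like cells with 114 CPM in TB and 102 CPM in PBS. Levels in NK-like cells exceeded those in monocyte/macrophage-like cells 2.80-fold in TB (2.69 to 2.91) and 2.57-fold in PBS (2.41 to 2.74). NK-like and T-like cells changed places between the libraries, and none of these 6 ratios was called. The background share was 2.14% higher and 3.1% lower in dendritic-like cells, 3.28% higher and 7.09% lower in B-like cells, and 6.97% higher and 8.63% lower in neutrophil-like cells. Without cells with a T or NK marker UMI, Ifngr1 in B-like cells stood at 61.8 CPM in TB and 77.0 CPM in PBS. Neutrophil-like cells then had 108 CPM in TB and 106 CPM in PBS. Dendritic-like cells (254 CPM in TB, 263 CPM in PBS) and monocyte/macrophage-like cells (220 CPM in TB, 198 CPM in PBS) moved less.

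Within the lymphocytes Ifngr1 differed more between the clusters below than between the libraries. Klra4-led NK-like cells had 1094 CPM in TB and 1046 CPM in PBS, 2.29-fold in TB and 2.30-fold in PBS above Gzmc-led cells. Regulatory T-like cells had 1037 CPM in TB and 1203 CPM in PBS, 2.72-fold in TB (2.46 to 3.02) and 3.37-fold in PBS (3.07 to 3.70) above Gzmf-led CD8 T-like cells, which had 381 CPM in TB and 357 CPM in PBS. The Gzmf-led cells thus paired a high Ifng level with an Ifngr1 level below that of the T-like class as a whole in both libraries. In the myeloid cells F13a1-led cells had 429 CPM in TB and 378 CPM in PBS, against 153 CPM in TB and 170 CPM in PBS in Vcan-led cells.

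Plasmacytoid dendritic-like cells had the only Ifngr1 call among the classes with ratios. They rose to 232 CPM in TB (157 UMIs, 62 cells), against 67.1 CPM in PBS (62 UMIs, 140 cells), a ratio of 3.46 (2.56 to 4.72), in a class where 7.11% of genes were called higher and 9.73% lower. In these cells 46.8% in TB and 25% in PBS had a T or NK marker UMI, the summed T cell marker list stood at 569 CPM in TB and 372 CPM in PBS, the list of the class itself at 6161 CPM in TB and 10396 CPM in PBS, and the median depth was 10554 UMIs in TB and 5621 in PBS. In the 33 TB and 105 PBS cells without such a UMI, Ifngr1 stood at 44.1 CPM in TB (24.7 to 72.7) and 36.6 CPM in PBS (23.9 to 53.7), so the levels were close once those cells were left out.

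Ifngr2 had the opposite distribution, with myeloid cells highest and NK-like cells near 0. Monocyte/macrophage-like cells had 137 CPM in TB and 129 CPM in PBS, dendritic-like cells 98.7 CPM in TB and 106 CPM in PBS, and plasmacytoid dendritic-like cells 57.6 CPM in TB and 69.2 CPM in PBS. T-like cells had 5.94 CPM in TB (58 UMIs) and 6.14 CPM in PBS (60 UMIs), and NK-like cells 0.72 CPM in TB (9 UMIs) and 1.32 CPM in PBS (16 UMIs). The monocyte/macrophage-like level exceeded the NK-like level 189-fold in TB (99.5 to 414) and 98.4-fold in PBS (60.1 to 173), and the T-like level 23.1-fold in TB and 21.1-fold in PBS. None of these classes had a call for Ifngr2.

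Among T-like clusters the Ifngr2 UMIs lay where Ifng was low. Gamma-delta T-like cells had 60.2 CPM in TB (16 UMIs, 43 cells) and 100 CPM in PBS (6 UMIs, 13 cells). Naive T-like cells had 22.7 CPM in TB (18 UMIs) and 28.7 CPM in PBS (20 UMIs). Gzmf-led CD8 T-like cells had no UMI in TB, which allows up to 1.58 CPM, and 3 UMIs in PBS (1.83 CPM). Of T-like cells, 86.2% in TB and 81.6% in PBS had Ifngr1 UMIs with no Ifngr2 UMI, and of NK-like cells 96.1% in TB and 89.8% in PBS. Both chains were found in the same cell in 39.4% of TB and 18.5% of PBS monocyte/macrophage-like cells, but in 2.27% of TB and 2.12% of PBS cells after thinning to 1000 UMIs. Thinning left out 182 TB and 253 PBS monocyte/macrophage-like cells with fewer UMIs, and the unthinned shares of the cells kept were 43.6% in TB and 23.9% in PBS. The thinned shares rest on 39 TB and 18 PBS cells, and their intervals overlapped (1.62 to 3.10 in TB and 1.26 to 3.32 in PBS). For NK-like cells the thinned share was 0.09% in TB and 0 of 1169 cells in PBS, whose exact interval reaches 0.315%.

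**Figure D3:**
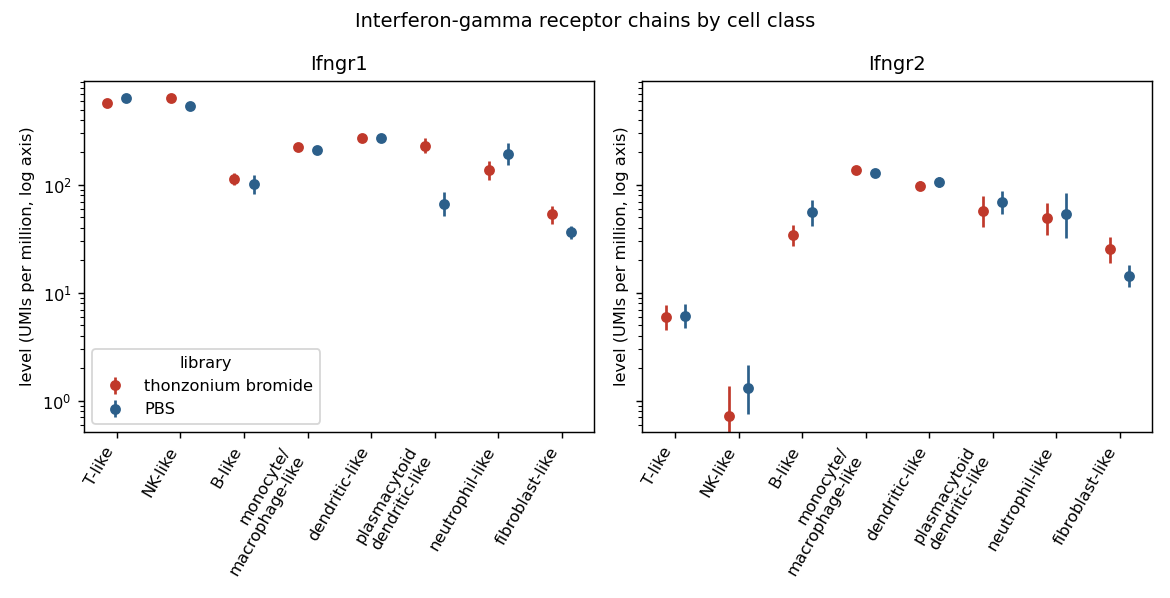
Level (CPM, log axis) of Ifngr1 (left) and Ifngr2 (right) in 8 cell classes, TB in red left of PBS in blue, with exact Poisson 95% intervals. Ifngr1 is highest in NK-like and T-like cells (537 to 638 CPM), and Ifngr2 is highest in monocyte/macrophage-like cells (137 CPM in TB and 129 CPM in PBS) and lowest in NK-like cells (0.72 CPM in TB and 1.32 CPM in PBS).

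Calls for Ifngr2 came in B-like and fibroblast-like cells. B-like cells fell to 34.3 CPM in TB (76 UMIs), against 55.7 CPM in PBS (52 UMIs), a ratio of 0.62 (0.43 to 0.89). T or NK marker UMIs were found in 6.30% of TB and 14.7% of PBS B-like cells, and without those cells the ratio was 0.71 (0.48 to 1.06) and lost the call. Fibroblast-like cells rose to 25.4 CPM in TB (53 UMIs), against 14.3 CPM in PBS (74 UMIs), a ratio of 1.78 (1.23 to 2.57), in a class where 5.66% of genes were called higher and 4.64% lower. In these cells Socs1 also rose, to 36.4 CPM in TB against 22.4 CPM in PBS, a ratio of 1.63 (1.2 to 2.19). The leading genes of the fibroblast-like class were Shisal2b, Cald1 and Rhox5, with the matrix genes Col3a1 and Sparc after them, and its 7 fibroblast markers summed to 652 CPM in TB and 728 CPM in PBS, with 2 in TB and 4 in PBS at 50 CPM or more. The CD45 gene Ptprc stood at 153 CPM in TB and 38 CPM in PBS there, the T cell list at 210 CPM in TB and 55.2 CPM in PBS, and the part of admixed leukocyte RNA was not tested. In the 47 TB and 161 PBS cells without a T or NK marker UMI, Ifngr2 stood at 30.9 CPM in TB and 10.9 CPM in PBS, and Socs1 at 25.1 CPM in TB and 25.3 CPM in PBS.

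Irf1 was highest in neutrophil-like cells and, among named classes with at least 50 cells in both libraries, was called higher only there. It rose to 563 CPM in TB (510 to 621, 409 UMIs, 182 cells), against 277 CPM in PBS (225 to 338, 98 UMIs, 91 cells), a ratio of 2.03 (1.63 to 2.56). Beside this, the summed T cell list stood at 150 CPM in TB and 384 CPM in PBS, and T or NK marker UMIs were found in 4.95% of TB and 16.5% of PBS neutrophil-like cells. Without those cells Irf1 stood at 599 CPM in TB and 323 CPM in PBS, a ratio of 1.85 (1.46 to 2.37) that stayed called. The summed erythroid list stood at 12297 CPM in TB and 887 CPM in PBS, and its part in the ratio was not tested.

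Over the larger classes as a whole Irf1 differed little between the libraries. Monocyte/macrophage-like cells had 228 CPM in TB and 219 CPM in PBS, dendritic-like cells 190 CPM in TB and 207 CPM in PBS, and plasmacytoid dendritic-like cells 155 CPM in TB and 145 CPM in PBS. T-like cells had 116 CPM in TB and 114 CPM in PBS, B-like cells 90.7 CPM in TB and 107 CPM in PBS, and NK-like cells 78.3 CPM in TB and 86.4 CPM in PBS. The NK-like level was the lowest of these in both libraries, with monocyte/macrophage-like cells 2.92-fold above it in TB and 2.54-fold in PBS. Erythroid-like cells fell to 5.79 CPM in TB (3 UMIs, 63 cells), against 18.6 CPM in PBS (80 UMIs, 721 cells), a ratio of 0.31 (0.06 to 0.94), where 2.08% of genes were called higher and 13.4% lower. That ratio turned to 1.52 with marker gates and 3.09 at a finer clustering.

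Clusters of dendritic-like and T-like cells differed in Irf1 more than the libraries did. Ccr7-led dendritic-like cells, which express the receptor for homing to lymph nodes, had 351 CPM in TB and 428 CPM in PBS, 2.16-fold in TB (1.82 to 2.55) and 2.41-fold in PBS (2.01 to 2.89) above Cd209a-led ones. Naive T-like cells had 174 CPM in TB and 195 CPM in PBS, against 49.5 CPM in TB and 58.5 CPM in PBS in Gzmf-led CD8 T-like cells, 3.52-fold in TB and 3.33-fold in PBS. Gzmk-led CD8 T-like cells, with an Ifng level near that of Gzmf-led cells in TB, had 140 CPM of Irf1 in TB and 137 CPM in PBS. The 2 Ifng-rich CD8 T-like clusters therefore differed in Irf1.

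Socs1 was highest in T-like cells, at 160 CPM in TB and 162 CPM in PBS. NK-like cells had 114 CPM in TB and 116 CPM in PBS, neutrophil-like cells 125 CPM in TB and 102 CPM in PBS, and monocyte/macrophage-like cells 88.0 CPM in TB and 96.8 CPM in PBS. Dendritic-like cells had 70.9 CPM in TB and 89.9 CPM in PBS (ratio 0.79), and B-like cells 33.8 CPM in TB and 28.9 CPM in PBS. None of these classes was called. Plasmacytoid dendritic-like cells rose to 72.4 CPM in TB (49 UMIs), against 37.9 CPM in PBS (35 UMIs), a ratio of 1.91 (1.21 to 3.04), but stood at 38.2 CPM in TB (20.4 to 65.4) and 28.2 CPM in PBS (17.2 to 43.5) without cells with a T or NK marker UMI.

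**Figure D4:**
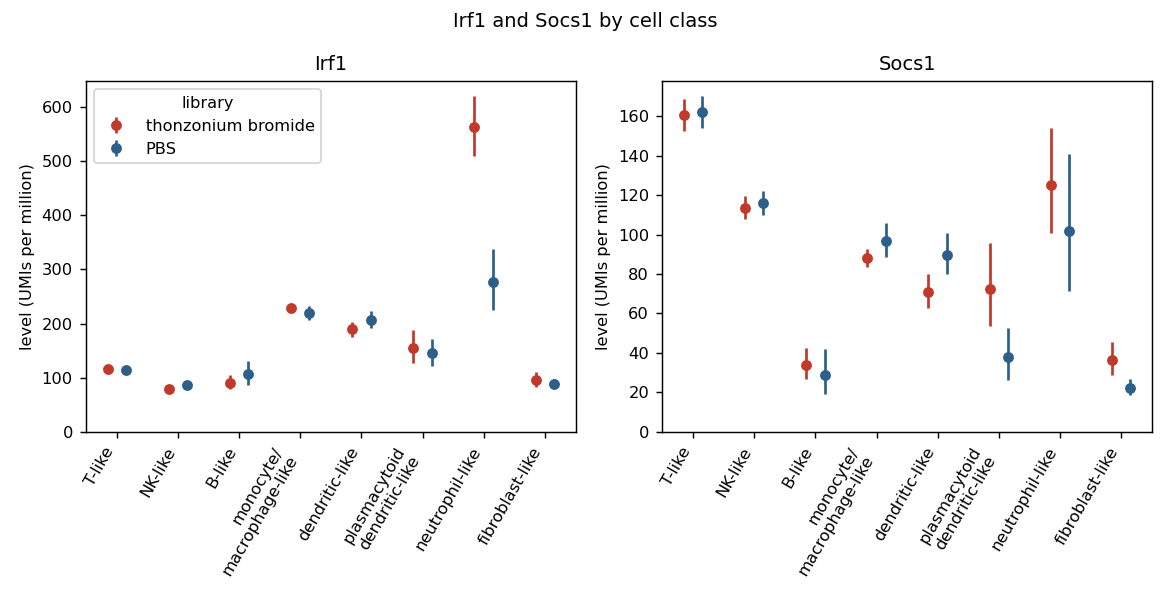
Level (CPM, linear axes from 0) of Irf1 (left) and Socs1 (right) in 8 cell classes, TB in red left of PBS in blue, with exact Poisson 95% intervals. Neutrophil-like cells stand apart for Irf1 at 563 CPM in TB and 277 CPM in PBS, and T-like cells lie highest for Socs1 at 160 CPM in TB and 162 CPM in PBS.

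Among lymphocyte clusters Socs1 stood at 338 CPM in TB and 300 CPM in PBS in gamma-delta T-like cells and at 226 CPM in TB and 218 CPM in PBS in Ly6c2-led T cells. Ly6c2-led cells exceeded Gzmf-led CD8 T-like cells (92.7 CPM in TB and 100 CPM in PBS) 2.44-fold in TB and 2.17-fold in PBS. Ifi44-led NK-like cells had 204 CPM in TB and 213 CPM in PBS, 2.25-fold in TB and 2.04-fold in PBS above Gzmc-led cells. Among myeloid clusters, Vcan-led cells had 124 CPM in TB and 150 CPM in PBS. F13a1-led cells fell to 18.7 CPM in TB, against 39.5 CPM in PBS, a ratio of 0.47 (0.31 to 0.73), where 3.68% of genes were called lower. F13a1-led cells thus had more Ifngr1 and less Socs1 than Vcan-led cells in both libraries.

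Over the classes, 38 ratios of the 5 genes could be measured and 9 were called, 6 higher and 3 lower. Of all genes, the share called in either direction was 5.74% in T-like, 3.42% in NK-like, 10.4% in B-like, 8.58% in monocyte/macrophage-like, 5.25% in dendritic-like, 16.8% in plasmacytoid dendritic-like, 15.6% in neutrophil-like, 15.5% in erythroid-like and 10.3% in fibroblast-like cells. Apart from Ifng in T-like and monocyte/macrophage-like cells, the calls fell in classes of at most 721 cells in either library.

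**Figure D5:**
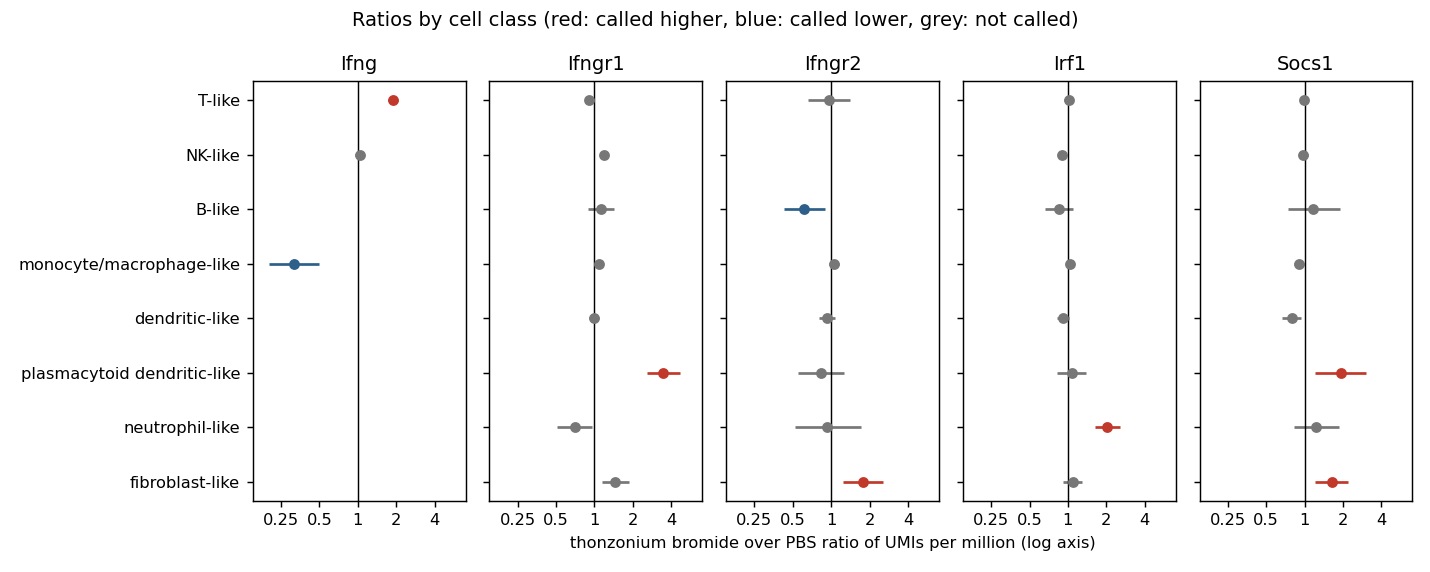
TB over PBS ratio of CPM (log axis) with its exact 95% interval for each of the 5 genes in 8 classes with at least 50 cells in both libraries, shown where the gene had at least 50 UMIs, red where called higher, blue where called lower and grey where not called. The Ifng ratio is 1.89 in T-like cells, 1.03 in NK-like cells and 0.32 in monocyte/macrophage-like cells, and the Irf1 ratio is 2.03 in neutrophil-like cells.

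The genes upstream of Ifng were set beside it. Of 11 genes for receptors and transducers that induce Ifng, none was called in T-like or NK-like cells, with medians of -0.12 in T-like and -0.05 in NK-like cells (log2 ratio), against -0.08 and -0.01 over all genes measured there. Il12rb2, a chain of the receptor for interleukin-12, was highest in NK-like cells, at 85.1 CPM in TB and 65.9 CPM in PBS, and Il2rb, a chain shared by the receptors for interleukin-2 and interleukin-15, at 1237 CPM in TB and 1178 CPM in PBS. Of the transcription factor genes known to act at Ifng, none of 8 measured in T-like cells and none of 9 in NK-like cells was called. Single clusters held calls. Batf, an AP-1 family gene, was higher in both cycling clusters with an Ifng call, at 36.2 CPM in TB and 20.1 CPM in PBS in cycling T cells (ratio 1.79, 1.15 to 2.83) and at 43.4 CPM in TB and 23.3 CPM in PBS in cycling NK-like cells (ratio 1.86, 1.07 to 3.30). Eomes was higher in Gzmf-led CD8 T-like cells, at 38.4 CPM in TB and 17.7 CPM in PBS (ratio 2.17, 1.40 to 3.47), where 2.21% of genes were called higher. Bhlhe40 was lower in Klra4-led NK-like cells, at 140 CPM in TB and 213 CPM in PBS (ratio 0.66, 0.56 to 0.77), where 3.29% of genes were called lower. Over whole classes Eomes stood at 234 CPM in TB and 264 CPM in PBS in NK-like cells, and Runx3 at 538 CPM in TB and 572 CPM in PBS. Among the inducing cytokine genes, Il12b, the shared subunit of interleukin-12 and interleukin-23, was found in dendritic-like cells at 129 CPM in TB and 104 CPM in PBS. Il15 and Il18 were highest in neutrophil-like cells, at 293 CPM in TB and 367 CPM in PBS for Il15 and 116 CPM in TB and 98.9 CPM in PBS for Il18. Ebi3, a subunit of interleukin-27, fell in T-like cells to 6.55 CPM in TB, against 14.9 CPM in PBS, a ratio of 0.44 (0.32 to 0.59). The T-like class held 162 TB and 409 PBS regulatory T-like cells, and 212 TB and 17 PBS Gzmk-led CD8 T-like cells. The part of this mix in the Ebi3 ratio was not tested. Over the whole T-like and NK-like classes Ebi3 was the single call of the inducing lists.

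In monocyte/macrophage-like cells 5 of the 11 receptor and transducer genes fell, where 6.82% of all genes were called lower. Among them Il2rb fell to 23.7 CPM in TB against 68.6 CPM in PBS (ratio 0.35). Il18r1, a chain of the interleukin-18 receptor, fell to 4.86 CPM in TB against 12.6 CPM in PBS (ratio 0.38). Eomes fell there too, to 3.15 CPM in TB against 11.9 CPM in PBS. These are lymphocyte genes, and 7.38% of TB and 13.9% of PBS cells of the class had a T or NK marker UMI. Their part in these falls was not tested.

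Downstream, 24 interferon-gamma-induced genes were measured in monocyte/macrophage-like cells, of which 8 rose and none fell, with a median log2 ratio of 0.25 against -0.03 over all genes, of which 1.76% were called higher and 6.82% lower. Beside this, the class had median depths of 8620 UMIs in TB and 2356 in PBS. Its neutrophil list summed to 700.03 CPM in TB and 273 CPM in PBS, and its erythroid list to 1744 CPM in TB and 2929 CPM in PBS. The class pools 801 TB and 268 PBS Vcan-led, 403 TB and 107 PBS F13a1-led, and 332 TB and 156 PBS C1q-led cells. It also holds 361 TB and 573 PBS cells of an Ace-led low-depth cluster. The part of depth, of these lists and of the mix of clusters in the class ratios was not tested. Cxcl9, a chemokine gene that draws in T cells, rose to 314 CPM in TB, against 80.3 CPM in PBS, a ratio of 3.91 (3.53 to 4.33). Gbp2, a guanylate-binding protein gene, rose to 832 CPM in TB, against 417 CPM in PBS, a ratio of 2.00 (1.91 to 2.09). H2-Ab1 and Cd74, genes of MHC class II presentation, rose 1.53-fold and 1.57-fold. None of 6 genes of receptor-proximal signalling was called. Irf1 and Socs1 thus had ratios of 1.04 and 0.91 in the class where 8 listed genes rose.

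The other myeloid classes varied. In dendritic-like cells 2 of 23 interferon-gamma-induced genes rose, where 2.14% of all genes were called higher. These were Cxcl9, at 135 CPM in TB and 83.3 CPM in PBS, and Gbp2, at 443 CPM in TB and 281 CPM in PBS. In plasmacytoid dendritic-like cells 8 of 22 rose and none fell (median 0.23 against -0.10 over all genes, of which 7.11% were called higher), among them Gbp2, at 143 CPM in TB and 13 CPM in PBS, and Cxcl9, from 62 UMIs in TB and 3 in PBS (ratio 28.2, 9.22 to 141). Beside the lower list of the class itself given above, its neutrophil list summed to 720 CPM in TB and 35.7 CPM in PBS, its erythroid list to 39139 CPM in TB and 16674 CPM in PBS, and 9 in TB and 4 in PBS of 13 monocyte/macrophage markers reached 50 CPM. The part of such RNA was not tested. In neutrophil-like cells 4 of 20 rose and 3 fell, where 6.97% of genes were called higher and 8.63% lower and the erythroid and T cell lists differed as given above. Icam1, an adhesion gene, rose to 127 CPM in TB, against 36.7 CPM in PBS, and Irf8, a myeloid transcription factor gene, fell to 68.9 CPM in TB, against 192 CPM in PBS. The neutrophil-like rise of Irf1 therefore stood beside calls in both directions. In fibroblast-like cells 11 of 21 rose and none fell, where 5.66% of all genes were called higher and 4.64% lower. H2-Ab1 led them at 123 CPM in TB and 12.2 CPM in PBS, beside the higher Ptprc given above.

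In T-like and NK-like cells the same list had few calls over the whole class. In T-like cells 1 of 22 genes rose and 1 fell, with a median of -0.12 against -0.08 over all genes, of which 1.42% were called higher and 4.32% lower. Cxcl9 rose to 4.09 CPM in TB, against 1.02 CPM in PBS, and H2-Aa, an MHC class II gene, fell to 15.6 CPM in TB, against 25.3 CPM in PBS. The Cxcl9 levels were low and lay far below those of monocyte/macrophage-like cells given above. The part of admixed myeloid RNA in them was not tested. In NK-like cells H2-Aa was the single call among 21 genes, at 11.4 CPM in TB and 19.2 CPM in PBS, where 2.21% of all genes were called lower. NK-like clusters went both ways, with 4 of 21 genes higher and 1 lower in Gzmg-led cells, where 2.02% of genes were called higher, and 4 of 18 lower in Tmem176b-led cells, where 4.36% were called lower. Cxcl10 stood at 122 CPM in TB and 61.3 CPM in PBS in Gzmg-led cells, against 34.96 CPM in TB and 136 CPM in PBS in Tmem176b-led cells. In B-like cells none of 22 rose and 3 fell, namely Cxcl10, Igtp and Cd274, where 7.09% of all genes were called lower. Cd274, the gene of the checkpoint ligand PD-L1, fell to 34.7 CPM in TB, against 98.6 CPM in PBS, a ratio of 0.35 (0.26 to 0.48), and Cxcl10 fell to 28.4 CPM in TB, against 76.1 CPM in PBS.

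Other brakes on the route were mostly level between the libraries. Ptpn1, a phosphatase gene, was highest in monocyte/macrophage-like cells at 457 CPM in TB and 420 CPM in PBS, and Socs3, a relative of Socs1, in neutrophil-like cells at 410 CPM in TB and 376 CPM in PBS. Cish, another relative, was highest in T-like cells at 170 CPM in TB and 174 CPM in PBS and fell in dendritic-like cells to 24.2 CPM in TB, against 41.1 CPM in PBS, a ratio of 0.59 (0.45 to 0.78). None of 9 such genes was called in T-like or NK-like cells.

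The genes whose levels followed those of Ifng most closely over 24 lymphoid cluster and library units, among 4804 genes, were Sh2d2a (Pearson r 0.83), Nkg7 (0.82), Il10ra (0.81), Gpd2 (0.80) and Pstpip1 (0.80), on log2(CPM + 10). Nkg7 is a gene of cytotoxic granules and Il10ra the gene of an interleukin-10 receptor chain. Over the same units r with Ifng was -0.05 for Ifngr1, -0.41 for Irf1 and 0.01 for Socs1. For Irf1 over 18 class and library units, among 5521 genes, the closest were Irgm1 (0.98), an interferon-induced GTPase gene, Gabarap (0.97), Rab9 (0.97), Tnrc18 (0.96) and Zfand3 (0.96). Irf1 had r of 0.72 with Ifngr2 and 0.28 with Ifngr1. The 18 units include erythroid-like cells, where the erythroid list summed to 846041 CPM in TB and 821799 CPM in PBS. Irf1 stood at 5.79 CPM in TB and 18.6 CPM in PBS there, and Irgm1 at 5.79 CPM in TB and 16.5 CPM in PBS. The part of these units in the r values of Irf1 was not tested. Units share their library, depth and cluster origin, so these values are descriptions with no test.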

How the data were processed

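Single-cell RNA was measured in 1 library per treatment, prepared with a droplet kit from 10x Genomics per the labels' protocols. The authors deposited raw UMI counts of 32285 genes in every barcode, made with Cell Ranger 6.1.2 per the file headers. Seurat 3.0, R 3.5.3 and the mm10 build stand in the submitters' processing notes. The lowest barcode totals were 501 UMIs in the TB and 500 in the PBS library. From the deposited counts, barcodes needed at least 200 genes and no more than 20% of their UMIs from mitochondrial genes, which left 5833 of 6724 TB and 6419 of 7803 PBS barcodes. Counts were scaled to 10000 per cell and log-transformed. From 2000 variable genes, without the 5 genes and without mitochondrial, ribosomal, haemoglobin, antigen receptor and sex-linked genes, 30 components and 15 neighbours were clustered with Leiden at resolution 1 (scanpy 1.11.5, leidenalg 0.10.2) without integration, and lymphoid cells were clustered again. A cluster was named where a marker list led by at least 0.4 (mean log2 level, a margin set after the clusters were seen) with at least 3 markers at 50 CPM and 2-fold. Unnamed clusters held 329 TB and 613 PBS cells. No doublets were removed. UMIs were summed per class and library, with exact Poisson, conditional binomial and Clopper-Pearson 95% intervals (scipy 1.17.1), and no p-values. The ratio procedure was tested on simulated data.

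The 5 genes and all lists were chosen with earlier results of these data known. Named list genes are in each list and class the called genes at either extreme of the ratio, up to 2 at each end, and the most abundant gene, plus 5 genes by correlation. Other list genes named, among them Il12rb2, Eomes, Runx3, Il12b, Il15, Il18, Batf, Ptpn1, Socs3 and Cish, and the contrast by Ifng UMIs were picked after their values were seen. Alternatives covered filters, cell classes, scaling, depth, high-UMI cells, cluster weights and the low-count limit. A listed gene is not reported here by name, though it stays in the list counts and medians. Levels of different genes are not compared with each other.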

Additional observations from a re-analysis of the deposited data

Results flagged for a closer look

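Some genes had calls in opposite directions in different cell classes, and no difference between classes was tested. The TB over PBS ratio of Ifng was 1.89 in T-like cells and 0.32 in monocyte/macrophage-like cells, from 41 TB and 42 PBS UMIs in the second class. The ratio of Ifngr2 was 1.78 in fibroblast-like cells and 0.62 in B-like cells. The ratio of Irf1 was 2.03 in neutrophil-like cells and 0.31 in erythroid-like cells, where it rests on 3 TB and 80 PBS UMIs.

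Ifng was also found in cells left without a class, which no comparison used, at 133 CPM in the TB library (255 UMIs) and 48.9 CPM in the PBS library (66 UMIs). Nearly all of it lay in a single cluster of 288 TB and 437 PBS cells, with 254 TB and 51 PBS UMIs. In that cluster 8 TB cells and 0 PBS cells had at least 10 Ifng UMIs, and those 8 held 195 UMIs. Of its cells with Ifng, 42 of 49 in TB and 23 of 35 in PBS also had a UMI of Cd3e, Trac, Ncr1 or Klrb1c. The barcode with most Ifng in either library, 98 UMIs, lay in the TB part of this cluster and held 25321 UMIs in all, with 9 of Cd3e and 10 of Cd8a beside 59 of the myeloid gene Lyz2 and 65 of C1qa.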

How the results depend on the processing

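Of 69 values of called ratios under alternatives, 58 kept direction and call, 6 lost the call and 5 turned. Of 266 values of ratios that were not called, 9 gained a call, and 38 lay on the other side of 1 from the reported value, 2 of them called. The Ifng ratio in T-like cells ranged from 1.32 to 2.31 and lost its call with the same cluster weights (1.32, 1 cluster with under 10 cells in a library left out) and without the Gzmk-led cells (1.44). In NK-like cells it ranged from 0.91 to 1.2 and was never called, though no alternative left out the Egr3-led cluster as such. The Ifng ratio in monocyte/macrophage-like cells turned to 1.21 at 10% mitochondrial UMIs and 1.29 at resolution 2. Irf1 in erythroid-like cells turned to 1.52 with marker gates and 3.09 at resolution 2, and Socs1 in plasmacytoid dendritic-like cells to 0.93 with the mean of per-cell CPM. The count of 9 calls became 2 after thinning to 1000 UMIs, where 19 ratios had enough UMIs, and these 2 were the calls reported among those 19. It became 3 with the same cluster weights, which exist for 22 ratios, of which 3 had been called, 2 of them in both. The NK-like share of Ifng UMIs in TB, 40.3%, became 44.8% with marker gates, 43.4% thinned, 43.5% without the 5% of cells with most UMIs, 48.4% without Gzmk-led cells, 45.1% without cells with at least 10 Ifng UMIs and 46.2% of T-like and NK-like UMIs alone. NK-like cells held more than T-like cells in TB without the Gzmk-led cells (T-like 36.2%) and without cells with at least 10 Ifng UMIs (T-like 43.6%), as in PBS. In PBS, 54.7% became 49.1% with the mean of per-cell CPM, 59.1% without the 5%, 50.4% without cells with at least 10 UMIs and 60.6% of T-like and NK-like UMIs alone. The cause was not tested. The alternatives on Gzmk-led cells, cells with at least 10 Ifng UMIs, T or NK marker cells and the T-like and NK-like denominator were chosen after seeing the data. No paired analysis was possible because each group has 1 library.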

Other observations

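The barcodes removed by the filters also held Ifng, with 6 UMIs in 891 TB barcodes (2.85 CPM, 1.05 to 6.21) and 94 UMIs in 1384 PBS barcodes (42.7 CPM, 34.5 to 52.3).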
